A study of Mus musculus with 2 samples.

Results

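The gamma-delta T cells described here were 490 of the 12872 barcodes kept in the pair of single-cell libraries, 358 of 7609 in the wild type (WT) library and 132 of 5263 in the MG53-TG library. A barcode was kept with at least 1000 unique molecular identifiers (UMIs, each standing for 1 captured transcript), at least 200 genes and at most 25% of UMIs from mitochondrial genes. A kept barcode counted as a gamma-delta T cell when the CD3 genes Cd3d, Cd3e and Cd3g had at least 2 UMIs together, Trdc at least 1 UMI, Cd8b1 0 UMIs and Epcam at most 1 UMI. These measured values chose the cells, so the levels of those genes are a description and carry no test. A further 477 cells passed the CD3 and Epcam limits with 0 UMIs of both Trdc and Cd8b1 (340 in WT, 137 in MG53-TG) and are called other T cells. The Cd8b1-positive T cells numbered 171 (126 and 45), and 10 cells held both Trdc and Cd8b1.

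MG53-TG mice overexpress MG53, a membrane repair protein encoded by Trim72, throughout the body, and the WT mice were their littermates without the transgene. Both groups drank 2.5% dextran sulfate sodium (DSS), which damages the intestinal epithelium, and cells were taken on day 7, so no cell came from an uninjured gut. Intestinal crypts were dissociated and live EpCAM-positive cells were sorted, a gate aimed at epithelium, and the study also describes the exclusion of CD45-positive cells. The gamma-delta T cells nevertheless carried Ptprc, the gene of CD45, at 1079 and 1390.4 CPM in WT and MG53-TG (counts per 1000000 UMIs of the summed cells), with a UMI in 95.8% and 98.5% of cells. Each genotype had 1 library, the labels do not give the number of mice in a library, and cells of 1 library are not replicates. The study describes several mice per genotype for this experiment without saying how they were divided over libraries, and no barcode could be tied to a mouse. Differences between genotypes therefore have no replicate check, no p-value is given, and every interval covers counting error only (95%). Animals, library, program version and barcode filtering cannot be told apart from genotype, since the WT counts were made with Cell Ranger 4, those of MG53-TG with version 6.0.1, and only the WT table held barcodes under 500 UMIs.

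Intraepithelial lymphocytes lie between the epithelial cells of the gut, held there by the integrin CD103, the product of Itgae, which binds E-cadherin on the neighbouring cells. Those with a gamma-delta receptor develop largely outside the conventional CD8 alpha-beta lineage, often carry CD8 as an alpha-alpha homodimer, and are known for granzymes, for natural killer (NK) type receptors and for a part in epithelial repair after injury. In the mouse intestine many of them use the V gamma 7 chain, written Tcrg-V7 in the annotation of these files.

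The 4 marker genes were abundant. Where values come in pairs, the WT value stands first. Trdc, the constant region of the delta chain (chr14:54142851-54148868, plus strand, mm10), which the rule required, stood at 983 and 1251 CPM, with a median of 3 and 4 UMIs per cell. Cd3e, the epsilon chain of CD3, stood at 1232 and 1513 CPM. Gzma, encoding the serine protease granzyme A (chr13:113093825-113100981, minus strand), was the most abundant gene in both libraries at 38461 and 42524 CPM, mitochondrial and ribosomal protein genes aside, which is 3.85% and 4.25% of all UMIs. Itgae (chr11:73090583-73147446, plus strand) stood at 684 and 900.0 CPM, with a UMI in 84.6% and 96.2% of cells. In the epithelial comparison cells (Epcam at least 2 UMIs, none of the CD3 genes), Gzma was at 13.3 and 3.44 CPM and Itgae at 0.931 and 0.348 CPM. The labels call all cells of both libraries epithelial, and the summed transcripts of these cells are those of T cells. A few single members also held many epithelial transcripts.

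Many defining genes of other cell types were at 0 or low, but a few were detected. Summed over 23 epithelial markers without Epcam, the gamma-delta T cells held 0.723% (WT) and 0.39% (MG53-TG) of UMIs, where epithelial cells held 7.15% and 7.41%. The markers stood at a median of 6.17% (range 2.41% to 57.9%, Olfm4 lowest and Lyz1 highest) and 4.17% (1.15% to 31.1%, Olfm4 and Cdh1) of their epithelial level. Without cells over 10000 UMIs, a choice made after seeing the data, the medians were 5.47% and 3.01%. The highest values were then 40% and 33.1%, both of Cdh1. Of the 9 B and plasma cell markers, Ms4a1 had 0 UMIs and Cd79a stood at 0 and 1.88 CPM, whereas Ighm stood at 121 and 82.7 CPM, with a UMI in 26.8% and 22% of cells, and Cd79b at 62.1 and 58.2 CPM. The mast cell proteases Mcpt1 and Mcpt2 had 0 UMIs, while Kit, which other lymphocytes can also express, stood at 85.2 and 95.8 CPM, nearly all of the 86 and 95.8 CPM of the 6 mast cell markers together. The 12 myeloid markers summed to 109.9 and 154 CPM, mostly Itgax (59.7 and 93.9 CPM) and Fcgr3 (28.7 and 45.1 CPM), with S100a8 and S100a9 at 0 UMIs. The 10 markers of NK cells and innate lymphoid cells summed to 72.5 and 63.9 CPM, mostly Klrb1c (39.8 and 24.4 CPM, a UMI in 9.5% and 7.58% of cells) and Gata3 (27.9 and 35.7 CPM), a factor that T cells also use, with Ncr1 at 0 and 1.88 CPM and Eomes at 0 UMIs. The part of such cells in the results was not tested. No gamma-delta barcode was shared between the libraries, where 8 of all kept barcodes were.

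Depth differed between the libraries and between cell classes. The gamma-delta T cells had a median of 2915 UMIs in WT (range 1025 to 83635) and 3644.5 in MG53-TG (1428 to 22722), with 1302 and 1617.5 genes. Epithelial cells had medians of 16405.5 and 19347.5 UMIs, so a T cell was several times shallower than its neighbours. The summed depth was 1255888 UMIs in WT and 532223 in MG53-TG. 1 WT cell of 83635 UMIs supplied 6.66% of the WT sum. That cell held 30080 UMIs of Defa24 and 3005 of Lyz1, both products of Paneth cells, with 3 Trdc UMIs and 0 Gzma UMIs. Beyond it, 3 WT and 2 MG53-TG cells exceeded 10000 UMIs.

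The limits of the rule cut through a continuum in Trdc but not in CD3. With exactly 1 Trdc UMI there were 65 WT and 13 MG53-TG cells, just inside the rule, and among these Fcer1g stood at 1993 and 1366 CPM. Cells with 2 or more Trdc UMIs (293 and 119) had Fcer1g at 2264 and 2113 CPM, and the other T cells, just outside with 0 Trdc UMIs, had 2168 and 2161 CPM. Trac, the alpha chain constant region, was at 314 and 246 CPM at 1 Trdc UMI, at 289 and 349 CPM above it and at 655 and 642 CPM in the other T cells. Only 1 cell lay at the CD3 limit of 2 UMIs. An Epcam UMI was present in 73 and 23 cells, whose Krt8 stood at 299.6 and 367 CPM, and the 8 and 7 cells just outside with 2 Epcam UMIs had Krt8 at 1187 and 124 CPM.

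The share of gamma-delta T cells among kept barcodes was 4.7% in WT (95% Clopper-Pearson interval 4.24 to 5.2) and 2.51% in MG53-TG (2.1 to 2.97). The difference of -2.2 percentage points (-2.83 to -1.56) was larger than counting error, and the WT share was 1.88 times that of MG53-TG (1.53 to 2.31). The other classes stood in similar ratios. Cd8b1-positive T cells made up 1.66% and 0.855% of kept barcodes, a ratio of 1.94 (1.37 to 2.79), and other T cells 4.47% and 2.6%, a ratio of 1.72 (1.4 to 2.11). Among all T cells, gamma-delta cells were 43% in WT (39.6 to 46.4) and 41.9% in MG53-TG (36.4 to 47.6), a difference of -1.07 points (-7.47 to 5.33). The lower share in MG53-TG thus applied to T cells as a whole (10.9% and 5.99% of kept barcodes, 833 and 315 cells), and a shift of several points in the makeup of the T cells was within counting error. The sort was aimed at epithelial cells, so a share of barcodes is not a share of the tissue.

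**Figure D1:**
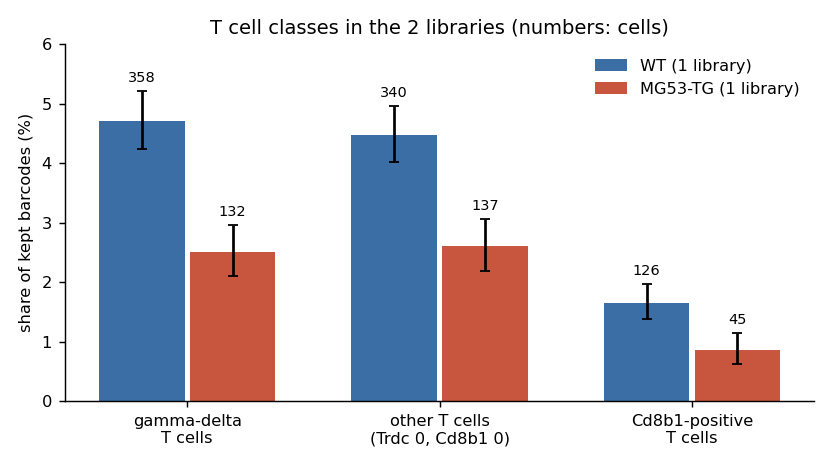
Share of kept barcodes (%) held by gamma-delta, other and Cd8b1-positive T cells in the WT and MG53-TG libraries, 1 library per bar, with 95% Clopper-Pearson intervals and the number of cells above each bar. The gamma-delta bars stand at 4.7% and 2.51%, and all 3 classes are lower in MG53-TG.

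Effector genes led the transcriptome. A UMI here marks the 3′ end of 1 transcript whatever its length, so levels are set beside each other without dividing by length. After Gzma, Ccl5, a chemokine that draws T cells and myeloid cells (chr11:83525778-83530518, minus strand), was next at 30574 and 35996 CPM. Gzmb, granzyme B, stood at 4326 and 4981 CPM. Nkg7, a granule membrane protein, reached 2144 and 2469 CPM, and Srgn, the proteoglycan that packs granules, 1367 and 1469 CPM. Prf1, the pore-forming perforin that lets granzymes into a target, was far lower at 82 and 109 CPM. Secreted cytokines were sparse: Ifng, encoding interferon gamma, was at 8.76 and 13.2 CPM, and Il17a, Il17f, Il22, Areg, Il13 and Il5 had 0 UMIs, where 3 counts would correspond to 2.39 and 5.64 CPM. Xcl1, Ccl4 and Ccl3, chemokines of activated lymphocytes, stood at 117 and 109, 268 and 199 and 66.1 and 52.6 CPM.

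Single cells varied widely around these sums. Gzma had a median of 117 UMIs per WT cell (interquartile range 54 to 199.8, highest 934) and 151 per MG53-TG cell (highest 950). Per 10000 UMIs of the cell the medians were 444 and 419, nearly level. No Gzma UMI was found in 49 WT cells (13.7%) and 13 MG53-TG cells (9.85%), and those 49 and 13 cells had median depths of 2950 and 3649 UMIs, close to those of all members. Ccl5 was nearly universal, at 97.5% and 100% of cells, with 328 and 349.7 UMIs per 10000. Cd7, an immunoglobulin superfamily receptor of T and NK cells, was found in 97.5% and 100%. Tyrobp was the most split of the genes plotted, with a UMI in 61.5% and 58.3% of cells and none in the rest.

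**Figure D2:**
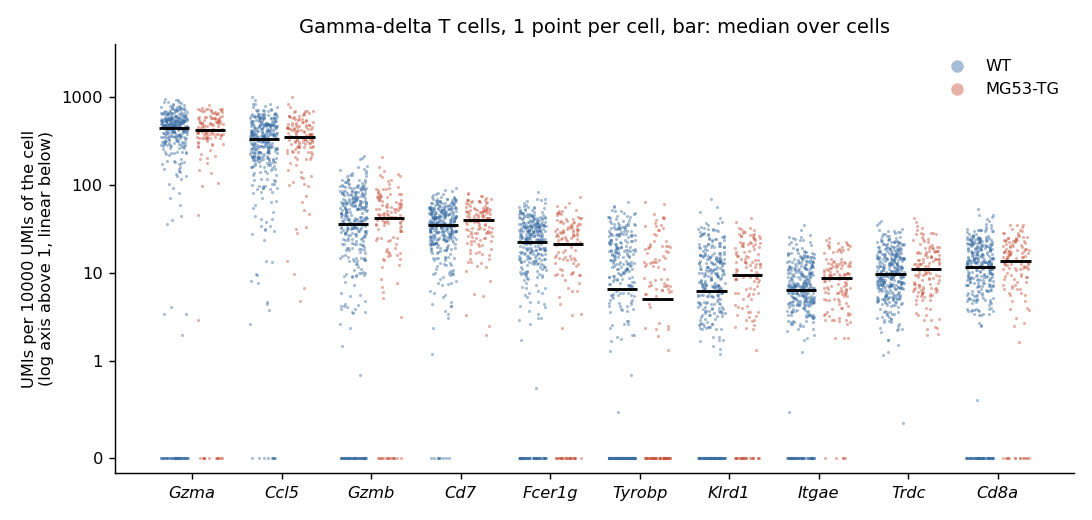
UMIs per 10000 UMIs of the cell (log axis above 1, linear below) of 10 genes in each gamma-delta T cell, 1 point per cell, with bars at the medians. Gzma and Ccl5 medians lie between 328 and 444, those of the other genes between 5.04 and 42.1, and cells with no UMI form the row at 0.

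Receptor transcripts were mixed. A UMI of Tcrg-C1, Tcrg-C2 or Tcrg-C4, the gamma chain constant regions, was present in 98% of WT and 97.7% of MG53-TG cells. Tcrg-C1 stood at 1304 and 1287 CPM, against 66 and 58.4 CPM in Cd8b1-positive and 257 and 175 CPM in other T cells. Tcrg-C2 did not separate the classes, at 678 and 686 CPM in gamma-delta and 687 and 569 CPM in Cd8b1-positive T cells, and Tcrg-C4 likewise (399.7 and 430.3 against 366 and 329 CPM). The gamma constant regions are similar in sequence and how reads mapping to several of them were counted is not stated, so the split between them is uncertain. Beta chain transcripts were common too: Trbc1 or Trbc2 had a UMI in 93% and 96.2% of cells, and Trac in 50.3% and 61.4%. Trac stood at 292 and 340.1 CPM, lower than in Cd8b1-positive (495 and 555 CPM) and other T cells (655 and 642 CPM). Trbc2 followed the same order, at 1087 and 1219, 1812 and 1701 and 1836 and 1911 CPM. Transcripts alone cannot tell which receptor a cell displayed, and 3′ reads rarely span a rearranged joint.

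Tcrg-V7 was detected in 77 of 358 WT cells (21.5%, 17.4 to 26.1) and 34 of 132 MG53-TG cells (25.8%, 18.5 to 34.1), at 78.8 and 78.9 CPM. It stood at 6.6 and 0 CPM in Cd8b1-positive and 12.7 and 6.58 CPM in other T cells. Tcrg-V1 had a UMI in 12% and 12.9% of cells and Tcrg-V4 in 8.38% and 6.82%. Trgv2, another V gamma gene, was found in more cells than Tcrg-V7, 57.8% and 69.7%. It did not separate the classes, with a UMI in 50.8% and 62.2% of Cd8b1-positive and 40.6% and 51.8% of other T cells. Cells with and without a Tcrg-V7 UMI were close in Gzma, at 37325 with and 38804 CPM without it in WT, and at 43491 and 42105 CPM in MG53-TG. Klrd1 was level in WT (769.6 and 790 CPM) and lower with Tcrg-V7 in MG53-TG (715 and 1265 CPM). Of 2715 genes compared, 2 were past 2-fold higher in both libraries (0.0737%), Tcrg-V7 itself and Dut, which encodes the enzyme that clears dUTP during DNA synthesis (113 against 48.7 CPM in WT, 99.5 against 40.4 in MG53-TG). The 3 past 2-fold lower (0.11%) were Defa22, Lyz1 and Spink4, products of Paneth and goblet cells. Single cells without Tcrg-V7 carried much of these: 1 WT cell held 3005 of the 3274 Lyz1 and 920 of the 1290 Spink4 UMIs, and 1 MG53-TG cell 448 of the 559 Spink4 UMIs. The most Defa22 UMIs in 1 such cell were 356 of 584 in WT and 20 of 32 in MG53-TG. Without members over 10000 UMIs, a choice made after seeing the data, Dut, Lyz1 and Spink4 were not past 2-fold in both libraries. Spink4 then stood at 376 with against 428 CPM without Tcrg-V7 in WT and 282 against 307 in MG53-TG. Lyz1 had log2 ratios of -0.91 and -1.68, and Dut of 0.91 and -0.16. Cells with a Tcrg-V7 UMI were also the deeper ones, with medians of 3586 against 2850 UMIs in WT and 4146.5 against 3607 in MG53-TG.

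Against Cd8b1-positive T cells of the same library, the gamma-delta T cells had higher Fcer1g, Tyrobp and Klrd1 and lower Thy1, Cd5, Cd6 and Lat. Of 3335 genes compared in both libraries, 74 were past 2-fold higher (2.22%) and 24 past 2-fold lower (0.72%) in both, counting Trdc and Cd8b1, which the classes were chosen on. Ratios are log2 ratios of CPM with 10 added to each side, which understates changes of low genes. The WT values rest on 358 against 126 cells and the MG53-TG values on 132 against 45, so that 3 counts in Cd8b1-positive T cells stand for 9.9 and 21.9 CPM and a 0 there is a coarse limit.

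Of 9 listed NK-type receptors and adaptors that entered, 3 were past 2-fold higher in both libraries, 1 was lower (Cd226), and the list's median log2 ratio was 0.17 in WT and 0.31 in MG53-TG. Fcer1g, the Fc receptor gamma chain, which can replace CD3 zeta in the receptor complex (chr1:171229572-171234365, minus strand), stood at 2225 and 2049.9 CPM against 188 and 94.9 CPM, log2 ratios of 3.50 in WT and 4.30 in MG53-TG. Tyrobp, encoding DAP12, the adaptor that activating NK receptors signal through (chr7:30413760-30417585, plus strand), stood at 1177 and 1041 against 119 and 36.5 CPM (3.20 and 4.50). Both adaptors were found together in 60.3% of WT and 58.3% of MG53-TG members. Klrd1, encoding CD94, the partner of NKG2 receptors (chr6:129591782-129598775, plus strand), stood at 785 and 1099 against 82.5 and 80.3 CPM (3.10 and 3.62). Clnk, an adaptor of immunoreceptor signalling, stood at 72.5 and 82.7 against 3.3 and 7.3 CPM, and Lat2, a linker related to LAT in function, at 231 and 216 against 42.9 and 36.5 CPM. Cd200r2, of the CD200 receptor family, stood at 179 and 197 against 9.9 and 7.3 CPM.

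Detection in single cells showed the same gap at equal depth. Every cell was thinned at random to 1000 UMIs, 20 times over, and values are those of the first thinning, with the range over all 20 where it is given. Fcer1g was found in 75.4% of WT gamma-delta T cells (range 73.5 to 78.5) and 6.35% of Cd8b1-positive T cells (5.56 to 7.14). The MG53-TG values were 69.7% (64.4 to 72.7) for gamma-delta and, in every thinning, 2.22% for Cd8b1-positive T cells. In 1000 epithelial cells drawn at random per library, which should lack the gene, the values were 0.2% in WT and 0% in MG53-TG, where the count of 0 allows up to 0.368%. Klrd1 was found in 47.8% (44.7 to 51.7) of WT and 60.6% (50.8 to 64.4) of MG53-TG gamma-delta T cells, against 10.3% (4.76 to 10.3) and 8.89% (0 to 8.89) of Cd8b1-positive T cells, so the ranges of the classes did not overlap for either gene. At this depth Trdc itself was kept in 68.4% (64 to 73.2) and 73.5% (64.4 to 74.2) of the gamma-delta T cells, so a cell with few UMIs can lack Trdc by sampling. Without thinning, Fcer1g was found in 84.9% and 80.3% of gamma-delta T cells and Klrd1 in 73.2% and 81.1%.

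Of 10 listed transcription factors that entered this comparison, 1 was past 2-fold higher and 2 lower in both libraries, and of 6 listed cytokine receptors 1 was higher and 1 lower. Ikzf2, encoding the zinc finger factor Helios, stood at 424 and 559.9 against 69.3 and 29.2 CPM (2.45 and 3.86), and Irf8 at 122 and 111 against 26.4 and 0 CPM. Bcl11b, a factor of T cell commitment, ran the other way at 68.5 and 107 against 274 and 358 CPM (-1.86 and -1.65). Il2rb, the beta chain of the interleukin 2 and 15 receptors, stood at 412 and 413 against 152 and 87.6 CPM. Il7r, the interleukin 7 receptor, stood at 14.3 and 30.1 against 267 and 402 CPM (-3.51 and -3.36). Among inhibitory receptors 4 entered and 2 were past 2-fold higher, Cd200r1 and Lag3, the latter at 95.5 and 156 against 29.7 and 21.9 CPM.

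Of 17 listed T cell receptor and CD3 genes, 4 were past 2-fold lower in both libraries and 2 higher, Tcrg-C1 and, by the rule, Trdc. Thy1 (chr9:44043384-44048579, plus strand) stood at 30.3 and 43.2 against 327 and 336 CPM. Cd5 and Cd6, related receptors that dampen receptor signalling, stood at 0 and 13.2 against 218 and 189.8 CPM and at 11.9 and 39.5 against 393 and 402 CPM. In MG53-TG 1 gamma-delta T cell held 6 of the 7 Cd5 UMIs, and without it the level was 1.9 CPM. A UMI of Thy1, Cd5, Cd6 or Il7r was present in 13.7% of WT and 25.8% of MG53-TG members. Lat, the scaffold that couples the receptor to downstream enzymes (chr7:126363824-126369570, minus strand), was lower but still detected, at 137 and 225 against 631 and 759 CPM, with a UMI in 15.6% (11.7 to 17) and 20.5% (16.7 to 25) of thinned gamma-delta against 48.4% (43.7 to 51.6) and 51.1% (44.4 to 64.4) of Cd8b1-positive T cells. Cd226, an activating receptor, stood at 51.8 and 69.5 against 264 and 402 CPM, and Ms4a4b, a membrane protein of T cells, at 18.3 and 39.5 against 475 and 613 CPM.

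**Figure D3:**
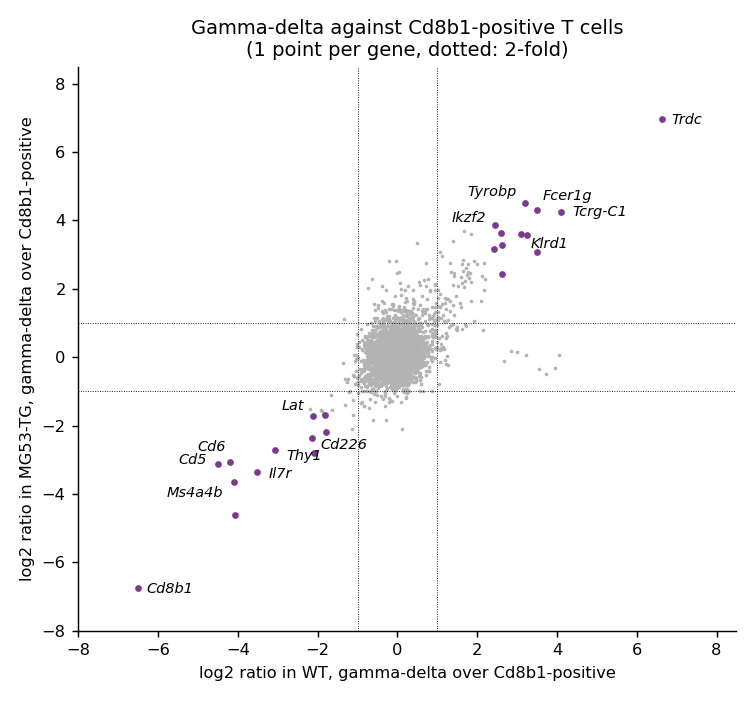
Log2 ratio of gamma-delta over Cd8b1-positive T cells (CPM with 10 added) in WT (x axis) and in MG53-TG (y axis), 1 point per gene, dotted lines at 2-fold and named genes in purple. Fcer1g, Tyrobp, Klrd1 and Ikzf2 lie at the upper right, Thy1, Cd5, Cd6, Il7r and Lat at the lower left, and Trdc and Cd8b1 at the far ends are genes of the rule.

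Most listed granule and residency genes were within 2-fold between the classes. Of 14 listed cytotoxic granule genes 1 was past 2-fold higher in both libraries, Gzma (16704 and 12864 CPM in Cd8b1-positive T cells), and 1 lower, Gzmk (70.1 and 92.1 against 287 and 292 CPM). Gzmb stood at 2466 and 2241 CPM in Cd8b1-positive T cells, log2 ratios of 0.81 in WT and 1.15 in MG53-TG, past 2-fold in 1 library. Of 14 listed residency genes 2 were past 2-fold higher and 1 lower in both libraries, above the shares over all genes. Itgae was level, at -0.19 and 0.06. Cd8a, the alpha chain of CD8, was level too (0.08 and 0.20), at 1171 and 1439 CPM in cells chosen for having no Cd8b1 UMI. Ccr9, the gut homing receptor, stood at 225 and 263 against 347 and 416 CPM. The higher ones were Cd7 (1.41 and 1.23) and Tnfrsf9, a costimulatory receptor (1.11 and 2.96), and the lower one was Cxcr3, a receptor of inflammatory chemokines (-1.14 and -2.10). Of 8 listed genes of circulating T cells 4 had 0 UMIs in both libraries, S1pr1, Klf2 and Ccr7 among them, and the list summed to 60.5 and 88.3 CPM, with Tcf7 (30.3 and 37.6 CPM) and Il7r the highest. None of 9 interferon response, 12 MHC class I, 11 glycolysis or 7 PPAR target genes was past 2-fold in both libraries in either direction.

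The other T cells were much closer. Of 4496 genes compared, 4 were past 2-fold higher in gamma-delta T cells in both libraries (0.089%) and 11 lower (0.245%). The 4 were Trdc, Tcrg-C1, Tcrg-V7 and Spink4, a goblet cell product at 1112 and 1129 against 426 and 445 CPM. 1 cell in each library held 65.9% (920 of 1396) and 74.5% (448 of 601) of the Spink4 UMIs, and without it the gamma-delta levels were 406 and 293 CPM. Neither Fcer1g nor Tyrobp was past 2-fold here. In other T cells Fcer1g stood at 2168 and 2161 CPM and Tyrobp at 1381 and 1635 CPM, the latter against 1177 and 1041 CPM in gamma-delta T cells. Thinned Fcer1g detection was 66.8% (66.8 to 71.2 over 20 thinnings) and 66.4% (59.9 to 68.6) of other T cells, below the gamma-delta range in WT and overlapping it in MG53-TG. A range over thinnings covers the random draw of UMIs and not the number of cells. The WT counting intervals overlapped, 70.6 to 79.8 for gamma-delta and 61.5 to 71.8 for other T cells. Thinned Tyrobp detection overlapped in WT, at 50.3% (44.1 to 50.3) of gamma-delta and 44.4% (42.9 to 48.8) of other T cells. In MG53-TG it was lower in gamma-delta T cells in every thinning, at 38.6% (35.6 to 45.5) against 51.8% (46 to 54). The counting intervals overlapped (30.3 to 47.5 against 43.1 to 60.4), and unthinned Tyrobp detection was level at 58.3% and 59.1%.

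Several NK receptor genes of the Ly49 family were lower in gamma-delta than in other T cells. Klra7 (chr6:130218605-130233322, minus strand) stood at 15.1 and 1.88 CPM in gamma-delta and 186 and 405 CPM in other T cells. A Klra7 UMI was found in 8 of 358 (2.23%) and 1 of 132 gamma-delta T cells, against 56 of 340 (16.5%) and 43 of 137 (31.4%) other T cells. Klra1 stood at 3.98 and 3.76 against 59.3 and 101 CPM and Klra6 at 3.98 and 1.88 against 73.1 and 109.6 CPM. Klre1, a lectin-like receptor encoded in the same gene complex, stood at 30.3 and 20.7 against 170.5 and 256 CPM. Cd8b1-positive T cells were also below the other T cells in these genes. They had Klra7 at 3.3 and 29.2, Klra1 at 6.6 and 21.9, Klra6 at 6.6 and 7.3 and Klre1 at 19.8 and 0 CPM. All 4 were among the 11 genes past 2-fold lower, with Maf, Il7r, Itga4, Cd5, Ms4a4b, Lgals1 and BE692007. The family was not uniform: Klra5 stood at 64.5 and 18.8 against 85.8 and 94.2 CPM, close in WT, and Klra3 at 27.1 and 20.7 against 13.8 and 17.5 CPM, higher in WT. Klra genes are near-identical copies, and how reads shared among them were counted is not stated, so the values of single members are uncertain.

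**Figure D4:**
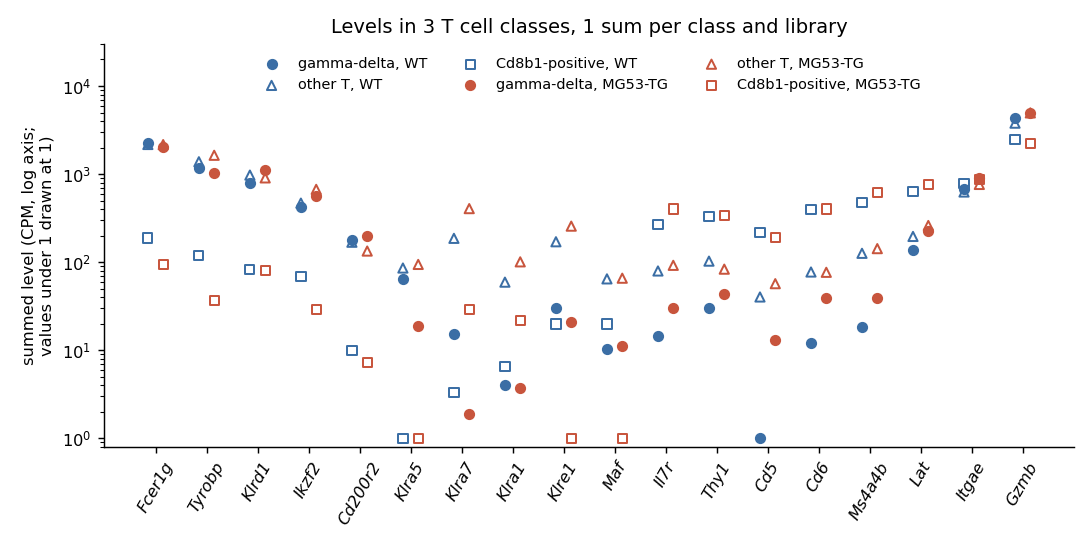
Summed level (CPM, log axis, values under 1 drawn at 1) of 18 genes in gamma-delta (filled circles), other (triangles) and Cd8b1-positive T cells (squares) of WT (blue) and MG53-TG (red). Fcer1g, Tyrobp, Klrd1 and Ikzf2 are near 2225 to 424 CPM in WT gamma-delta T cells and within 2-fold of other T cells, Klra7, Klra1 and Klre1 are highest in other T cells, and Il7r to Lat are highest in Cd8b1-positive T cells.

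Transcripts of dividing cells were found in a minority of the gamma-delta T cells. A UMI of Mki67 or Top2a, genes of dividing cells, was present in 40 of 358 WT (11.2%, 8.1 to 14.9) and 17 of 132 MG53-TG cells (12.9%, 7.68 to 19.8), whose median depths of 4037.5 and 4917 UMIs were above those of all members. At least 2 UMIs of the pair together were present in 2.51% and 4.55%. Stmn1 and Hist1h1b, used in mitosis and chromatin packing, stood at 112 and 86.4 and 179 and 75.2 CPM against 9.9 and 0 and 6.6 and 0 CPM in Cd8b1-positive T cells. Other T cells had Stmn1 at 102 and 46 CPM. Without thinning, Mki67 was found in 6.98% and 6.06% of gamma-delta, 6.35% and 4.44% of Cd8b1-positive and 6.47% and 7.3% of other T cells. 1 MG53-TG cell of 22722 UMIs held 26 of the 37 Mki67 UMIs of its class, so the summed level of 46.2 and 69.5 CPM is carried by that cell in MG53-TG. The most abundant cell likewise held 60.9% of the MG53-TG Stmn1 UMIs, without which the level was 35.3 CPM.

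Few genes were past 2-fold between the genotypes. Of 6025 genes with at least 30 UMIs in both libraries together and 20 CPM in the higher one, 28 were past 2-fold higher in MG53-TG (0.465%) and 62 past 2-fold lower (1.03%). The split moved with the scaling, to 13 higher and 84 lower with the median of ratios and to 24 and 104 with CPM over genes that are not higher in epithelial cells, and was 19 and 51 without members over 10000 UMIs. The median log2 ratio over the 6025 genes was 0.12, and the same median was -0.04 with scaling by the median of ratios, so a list is read below against the 50% of genes that lie above 0.12. The values of 1 library per genotype have no replicate error, so a 2-fold difference describes these libraries.

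Most of the 62 lower genes were at least as high in epithelial cells as in the gamma-delta T cells, 49 of them in both libraries and another 9 in 1 library, which gives 58. Among them were Paneth cell defensins, Lyz1 and antimicrobial Reg3 proteins. Not all are products of epithelium: Hist1h1b, a histone gene of dividing cells, stood at 179 and 75.2 CPM, and at 144 and 122 CPM in epithelial cells. Defa24 stood at 25993 and 697 CPM, and 92.1% of its WT UMIs were in 1 cell, without which the WT level was 2187 CPM. Lyz1 stood at 2647 and 107 CPM, or 272 CPM in WT without the same cell. The summed epithelial markers without members over 10000 UMIs were 0.432% of UMIs in WT and 0.238% in MG53-TG. Of 4 B and plasma cell genes that entered, 1 was past 2-fold lower, the immunoglobulin light chain Igkc at 28.7 and 7.52 CPM, and its epithelial level was 223 and 22.7 CPM. Igha stood at 51.8 and 22.5 CPM (log2 -0.92), not past 2-fold. WT barcodes under 100 UMIs, taken as empty droplets, held Igkc at 14104 CPM and Reg3b at 11773 CPM, and such droplets were not listed for MG53-TG. The part of free RNA in these 58 differences was not tested.

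Wls was the highest-ranked gene above the epithelial level. It encodes Wntless, the carrier that brings Wnt proteins to the cell surface for secretion (chr3:159839672-159938664, plus strand). WT had 145 UMIs and the shallower MG53-TG sum 152, 115 and 286 CPM, a log2 ratio of 1.24 (counting interval 0.97 to 1.64). A UMI was present in 33.5% of WT cells (at most 3 UMIs) and 50% of MG53-TG cells (at most 12). The ratio was also past 2-fold in Cd8b1-positive T cells (56.1 and 131 CPM, from only 17 and 18 UMIs) and in other T cells (92.1 and 213 CPM, 87 and 97 UMIs). With the members limited to Epcam 0 UMIs the gamma-delta ratio was 0.86, under 2-fold. Epithelial cells differed little, at 20.9 and 25.9 CPM (0.22). Of 2132 genes that entered in all 3 T cell classes, Wls was the 1 past 2-fold higher in each (0.0469%), and 10 were past 2-fold lower in each (0.469%), all defensin or other epithelial genes such as Defa24, Lyz1 and Krt19.

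The other 14 genes that were higher and above their epithelial level rested on few UMIs. Rora, a nuclear receptor transcription factor of innate-type lymphocytes, stood at 11.1 and 39.5 CPM (14 and 21 UMIs, log2 1.23), and Cd6 at 11.9 and 39.5 CPM (1.17, but 0.40 when each cell counted alike). The others included Zfp831, Fxr2, Gpr146, Sik3, Ifi208, Bag5, Tspyl2, Mettl4, Atp8a2, Spp1 and Ints7, at 9.55 to 35 CPM in WT and 35.7 to 82.7 CPM in MG53-TG. Of the 4 lower genes, 1 was an NK-type receptor. Klra5 (chr6:129898996-129917650, minus strand) had 81 WT and 10 MG53-TG UMIs, 64.5 and 18.8 CPM, a log2 ratio of -1.37 (-2.89 to -0.83). It was found in 35 of 358 (9.78%) and 5 of 132 (3.79%) gamma-delta T cells, whereas other T cells had 85.8 and 94.2 CPM. Zfp983, Uvrag and a predicted gene made up the rest of the 4, at 25.5 to 50.2 CPM in WT and 7.52 to 16.9 CPM in MG53-TG. Zfp983 was at -0.87 with Epcam 0 UMIs and Uvrag at -0.89 with at least 2000 UMIs (and -0.96 with Epcam 0), under 2-fold.

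**Figure D5:**
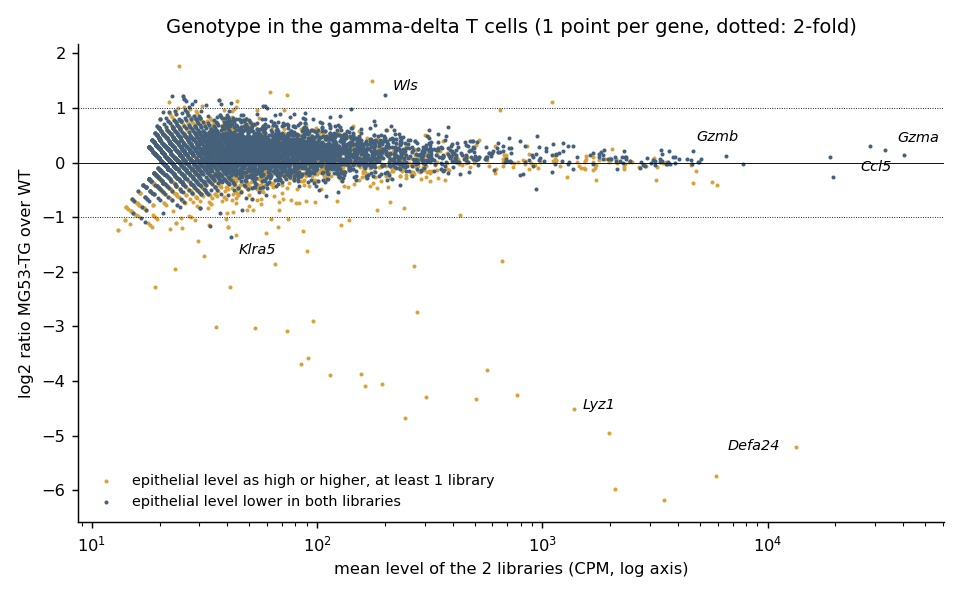
Log2 ratio of MG53-TG over WT in the gamma-delta T cells (y axis, CPM with 10 added) against the mean level of the libraries (x axis, CPM, log scale), 1 point per gene, dotted lines at 2-fold. Gzma, Ccl5 and Gzmb lie near 0, Wls at 1.24 and Klra5 at -1.37, and most genes past 2-fold lower are in yellow, at least as high in epithelial cells of at least 1 library.

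Few genes of the lineage and effector lists were past 2-fold. Of 16 cytotoxic granule genes that entered, none was past 2-fold, 9 lay above the all-gene median and the list's median log2 ratio was 0.17 (Gzma 0.14, Gzmb 0.20, Prf1 0.37). Of 16 T cell receptor and CD3 genes 13 lay above, with a median of 0.24 and 1 past 2-fold, Cd6. This list includes Trdc and the CD3 genes, which chose the cells, so its count is a description only. Of 12 NK-type receptors and adaptors 7 lay above (median 0.24), with Klra5 the 1 past 2-fold, while Fcer1g and Tyrobp had ratios of -0.12 and -0.18 and Klrd1 0.48. Of 15 residency genes 13 lay above (median 0.21, Itgae 0.39), and of 16 transcription factors 15 (median 0.25), with Rora the 1 past 2-fold. Scaling by the median of ratios moved the median of all genes from 0.12 to -0.04 and the list medians with it, to 0.07 for the T cell receptor list, 0.04 for residency and -0.00561 for the cytotoxic granule genes.

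Metabolic, interferon and cell state lists showed no 2-fold change, apart from 1 cell cycle gene. Targets of the PPAR nuclear receptors and genes of fatty acid oxidation, listed because the study also examined PPAR signalling, had a median of 0.05 over 14 genes, 6 of them above the all-gene median. Ucp2, a mitochondrial carrier, stood at 456 and 457 CPM and Hadha, of the beta-oxidation cycle, at 119 and 139 CPM. Glycolysis had a median of 0.12 over 12 genes and MHC class I 0.13 over 12, or -0.0392 and -0.0459 with the median of ratios, where the median of all genes was -0.04. Of 13 interferon response genes 11 lay above the all-gene median (list median 0.39), with Isg15 at 30.3 and 63.9 CPM (log2 0.88) and Rtp4 at 11.1 and 30.1 CPM (0.92), neither past 2-fold. Among 12 proliferation genes 6 lay above (median 0.03), and Ube2c, of mitotic protein turnover, was past 2-fold higher at 31.9 and 92.1 CPM. The proliferation median was -0.42 without members over 10000 UMIs. The 14 Atf4 target genes, a stress programme, had a median of 0.14, and the 10 immediate early and isolation stress genes 0.21. Of 22 epithelial markers that entered, 6 lay above the all-gene median (list median -0.44), and of 4 B and plasma cell genes 0.

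The transgene's gene was read in the T cells. Trim72, encoding MG53 (chr7:128003949-128011033, plus strand), had 0 UMIs in the 358 WT cells, where 3 counts would be 2.39 CPM. The Poisson interval in WT reached up to 2.94 CPM. In MG53-TG, Trim72 had 23 UMIs in 21 of 132 cells (15.9%), 43.2 CPM (27.4 to 64.8), a point value 18.1 times that 3-count WT floor. It stood at 43.8 CPM in Cd8b1-positive, 57 CPM in other T cells and 50.5 CPM in epithelial cells of MG53-TG. The gamma-delta level was thus 85.6% of the epithelial level, where the 23 epithelial markers had a median of 4.17% and a highest value of 31.1%. The part of free RNA in the Trim72 level was not tested. Thinned to 1000 UMIs, 6.06% (2.27 to 6.82 over 20 thinnings) of MG53-TG gamma-delta T cells and 4.8% (4.4 to 6.7) of 1000 epithelial cells kept a Trim72 UMI.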

How the data were processed

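Live EpCAM-positive intestinal cells of DSS-treated WT and MG53-TG mice were profiled by droplet single-cell RNA sequencing with a 3′ kit, 1 library per genotype. The authors deposited unscaled counts of UMIs for each gene and barcode, on mm10. Per the file headers, Cell Ranger 4 made the WT table and 6.0.1 the MG53-TG table, and the authors' later steps in Seurat were not used. Depth was 158455748 UMIs over 2005718 WT barcodes and 128227881 over 12361 MG53-TG barcodes. The use of strand and of reads mapping to several genes is not given in the sources used here. Genes were matched by Ensembl identifier to GENCODE positions (415 of 415).

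The members and the gene lists were chosen with earlier results of these data known. From the deposited counts, UMIs were summed over the cells of each class and library and divided by their total (CPM). A gene entered a comparison with at least 30 UMIs over both sides and 20 CPM in the higher one, ratios were log2 with 10 CPM added, and a gene was called past 2-fold, since 1 library per genotype permits no test. Named were genes of the lists, the 12 highest and 12 lowest of each comparison among genes whose counting interval excluded 0 (for genotype, genes above their epithelial level), and the 20 highest over epithelial cells. Names outside these lists, such as Defa24, Spink4, Dut, Hist1h1b, Klra6 and those given to complete a count, were added after their values were seen, and some genes are not reported here. Intervals are 95% exact (Clopper-Pearson for shares, Poisson for CPM, conditional binomial for ratios). Detection was compared after thinning each cell to 1000 UMIs (value of the first of 20 seeded thinnings, with the range over all 20; no T cell left out, epithelial cells as a random 1000 per library). Scrublet in scanpy 1.11.5 marked 0.0131% and 0.057% of kept barcodes at its automatic threshold, so it had not worked, and no doublet was removed except as an alternative (463 and 222 barcodes of highest score, 4 and 1 of them members). The scripts were tested on simulated data. Python 3.11.15 with numpy 2.4.6, scipy 1.17.1 and pandas 2.3.3 was used.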

Additional observations from a re-analysis of the deposited data

Results flagged for a closer look

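1 result was flagged because it lies in barcodes that no comparison used. WT barcodes under 100 UMIs, taken as empty droplets, held 52 Trim72 UMIs among 5978198, or 8.7 CPM (Poisson interval 6.5 to 11.4). The WT epithelial cells held 65 Trim72 UMIs among 110577680, or 0.588 CPM (0.454 to 0.749), and the WT gamma-delta T cells 0 UMIs. Trim72 in droplets of the MG53-TG library was not analysed here, since its table starts at 500 UMIs.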

How the results depend on the processing

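The difference in share, -2.2 percentage points, was negative under all 12 alternatives and -1.53 points when the rule was applied after thinning to 1000 UMIs. The WT and MG53-TG shares of kept barcodes were 3.18% and 1.65% in that setting, 3.78% and 1.7% with a mitochondrial limit of 50%, and 3.75% and 2.07% with Epcam 0 UMIs, and the WT share was 4.16% from 2000 UMIs, 3.85% with Trdc at least 2 UMIs and 5.34% with no limit on Epcam. The share among T cells was 29.7% and 27.5% after thinning, and in WT 47.2% from 2000 UMIs and 35.2% with Trdc at least 2 UMIs. Genes past 2-fold between genotypes numbered 13 higher with the median of ratios, 16 higher with Epcam 0 UMIs, 104 lower with CPM over genes not higher in epithelial cells, 4 higher and 29 lower with a filter of 100 CPM, 110 and 129 with a pseudocount of 1 CPM and 3 and 27 with 50 CPM. Against Cd8b1-positive T cells 36 genes were past 2-fold higher with the 100 CPM filter, which tests fewer genes. The fall of list medians under the median of ratios follows the shift of all genes by -0.16: T cell receptor and CD3 0.0676, residency 0.0418, epithelial markers -0.61, and the sign turned for glycolysis (-0.0392), cytotoxic granule (-0.00561) and MHC class I (-0.0459, and -0.00851 with CPM over genes not higher in epithelial cells, where the T cell receptor list was at 0.11). Other lists with a positive median also fell below 0 under some alternative. Their lowest medians were -0.0937 for PPAR targets, -0.126 for chemokines and cytokines and -0.0175 for Atf4 targets. With Epcam 0 UMIs the medians were 0.10 for the T cell receptor list, -0.14 for inhibitory receptors and 0.41 for proliferation. Without members over 10000 UMIs, an alternative chosen after seeing the data, they were 0.0183 for cytotoxic granule, -0.42 for proliferation and -0.68 for epithelial markers. Epithelial markers were at -0.20 without the highest Scrublet scores and -0.65 with the 100 CPM filter, and inhibitory receptors at 0.53 with that filter. Where no shift or construction is given, the cause was not tested. Unthinned detection in WT and MG53-TG gamma-delta T cells was 84.9% and 80.3% for Fcer1g, 61.5% and 58.3% for Tyrobp, 73.2% and 81.1% for Klrd1, 84.6% and 96.2% for Itgae and 88.3% and 94.7% for Trbc2. A further 263 recomputed summary values and 214 of named genes moved by less than their counting error or, for counts, within 1.5 times, and 2 of named genes moved more (Wls 0.86 with Epcam 0 UMIs, Cd6 0.40 with each cell counted alike). No paired analysis was possible because each genotype has 1 library, which also leaves no replicate to leave out. Depth limits genes under about 20 CPM in the 132 MG53-TG cells.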
